A study of Anguilla anguilla with 12 samples.

Results

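The miR-101 and miR-128 families of eel liver are described here from 1 deposited list of predicted microRNA (miRNA) precursors. Members were chosen by name. They are the entries whose listed zebrafish example with the same seed is called miR-101 or miR-128, and 7 of 820 entries met this rule, 4 for miR-101a and 3 for miR-128-3p. The seed spans bases 2 to 8 from the 5′ end of a mature miRNA, so the name rests on those bases alone. The families were taken up with their pooled read counts already known, so those counts are a description and nothing is tested on them. The samples were livers of European eels (Anguilla anguilla) in their yellow, growing stage, with 6 animals from Arcachon Bay, a site the study calls pristine, and 6 from the Gironde Estuary, which it calls polluted. In keeping with the liver label, the hepatocyte miRNA miR-122 had 176573973 mature reads at its leading entry. No treatment, age or strain is given in the labels used here. The list gives 1 pooled value for each precursor and no value for each animal. The sites are therefore not compared, no replicate error can be given, and fewer cells making a miRNA cannot be told apart from less of it in each cell.

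A miRNA precursor is an RNA hairpin. The enzyme Drosha cuts its open end, Dicer cuts off the loop, and of the pair of arms left over the more abundant is called mature and the other star. Argonaute proteins hold the mature strand, whose seed pairs with messenger RNAs. In mammals miR-101 is known for repressing EZH2, a histone methyltransferase of the Polycomb group, and is present in many tissues, liver among them. In mammals miR-128 is best known from brain, and it has also been linked to the control of cholesterol and lipid genes in liver.

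The sequences show what ties the members together and what sets them apart. The mature sequences follow, 5′ to 3′, with the seed in capitals, and for scaffold 96 also the base that differs from the first sequence.
miR-101a, scaffolds 251 and 423: uACAGUACugugauaacuga
miR-101a, scaffold 96: uACAGUACuAugauaacuga
miR-101a, scaffold 27891: uACAGUACaguagaacagugu
miR-128-3p, scaffolds 12068, 845 and 11793: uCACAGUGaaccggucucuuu

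The miR-101 family thus comprised 3 distinct mature sequences at 4 entries, and the miR-128 family 1 mature sequence at 3 entries. The sequence on scaffold 96 differed from the abundant miR-101a sequence by G10A, counted from the 5′ end of the mature sequence, which leaves the seed as it is. No reference miRNA sequences were used, so whether it equals another named member of the miR-101 family was not tested. The sequence on scaffold 27891 shared its first 8 bases with miR-101a and then parted from it, with 11 of 20 positions identical when both were laid side by side from the 5′ end. A global alignment with 1 gap made 15 of 21 aligned positions identical (71.4%), against 19 of 20 for the G10A variant. It also lay on the other arm of its hairpin, the 5p arm, while the other 6 members had their mature sequence on the 3p arm. It is called the seed-only entry here, since its name rests on the seed and it was less like miR-101a beyond it than the other miR-101 entries were. No entry with the ACAGUAC seed at bases 2 to 8 lay outside the miR-101 name, and none with CACAGUG there lay outside the miR-128 name. Since the name is given by the seed, this follows largely from the naming and is no result about the families.

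The abundant mature sequences of both families had nearly the same depth. The miR-101a sequence of scaffolds 251 and 423 had 1510404 mature reads, rank 18 of 676 distinct mature sequences in the list. The miR-128-3p sequence had 1447633 mature reads at its highest entry, rank 20. The variant with G10A had 341925 mature reads, rank 33, and the seed-only entry had 21. With each mature sequence counted once, the miR-101 family held 0.6795% of 272589277 pooled mature reads (exact binomial 95% interval 0.6786% to 0.6805%). The miR-128 family held 0.5311% (exact binomial interval 0.5302% to 0.5319%). These intervals cover counting error only, and not the spread between eels or copies made in amplification. Within the miR-101 family, the abundant sequence made up 81.5% of mature reads and the G10A variant 18.5%. These sequences differ by a single base and the mismatches allowed in mapping are not stated. Whether reads of one were counted at the other was therefore not tested.

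**Figure D1:**
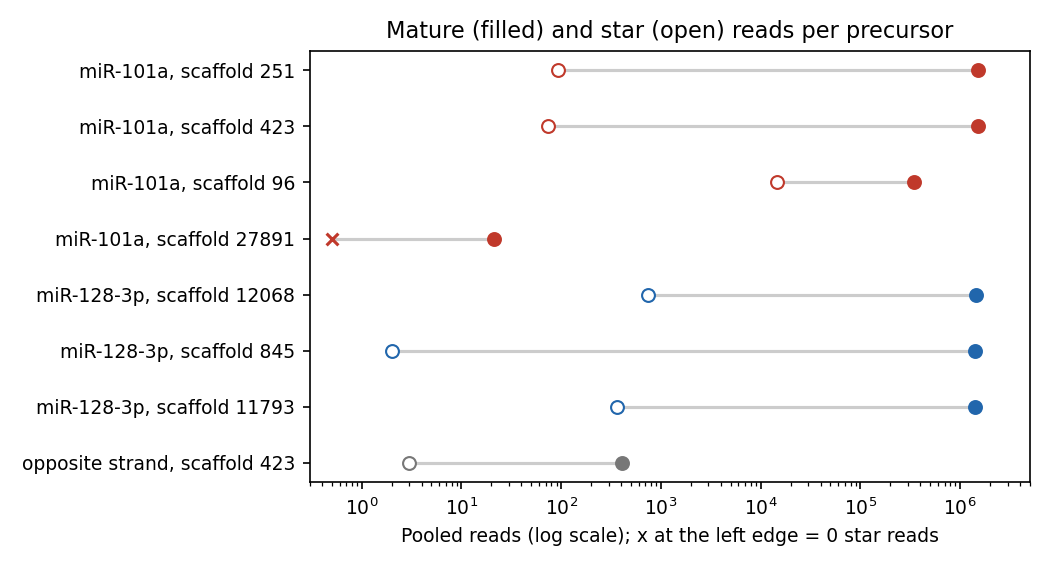
Mature reads (filled circles) and star reads (open circles) of each precursor on a log axis of pooled reads, with red for the miR-101 family, blue for miR-128 and grey for the prediction on the opposite strand; a cross marks 0 star reads. The mature reads of the copies lie on top of each other between 1405781 and 1510404, apart from the variant with 341925 and the seed-only entry with 21, whereas the star reads run from 2 to 14635.

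Copies of a hairpin differed in the sequence of their star arms where their mature sequences were the same. The star sequences follow, with capitals at bases that differ from the first star of the same family, position by position from the 5′ end. The star of scaffold 96 is 22 bases long against 21 on scaffold 251, so its last base has no counterpart and is left unmarked. The miR-128 star of scaffold 845 is 22 bases long against 23 on scaffold 12068 and aligned with a gap, so nothing in it is marked.
miR-101a star, scaffold 251: ucaguuaucacagugcugaug
miR-101a star, scaffold 423: ucaguuCucacagugcugaug
miR-101a star, scaffold 96: ucaguuaucaUGguAcCgGugc
miR-128 star, scaffold 12068: cgggaccggggugcugucugaga
miR-128 star, scaffold 11793: UgggGccgggACAcugucugaga
miR-128 star, scaffold 845: ugggggccguugcacuguaaga

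The miR-101a precursor on scaffold 251 (262721 to 262777, plus strand) had 1510404 mature and 93 star reads. The precursor on scaffold 423 (63850 to 63906, minus strand) had the same 1510404 mature reads and 74 star reads. These precursors were identical at 54 of 57 positions, with 2 differences in the loop and 1, A7C, in the star arm. Equal mature counts at identical sequences do not tell how many reads came from each copy. Their star reads rest on a difference of a single base, and the sources used here do not state how many mismatches the authors' mapping allowed.

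The G10A variant gave far more star reads than the abundant sequence. Its precursor on scaffold 96 (324885 to 324941, minus strand) had 341925 mature and 14635 star reads, a star share of 4.104% of mature plus star reads (exact binomial interval 4.04% to 4.17%). The abundant sequence, with the star reads of both copies added, had 167 star reads and a star share of 0.01106% (exact binomial interval 0.00944% to 0.0129%). The variant thus had 4.42 times fewer mature reads than the abundant sequence and 87.6 times more star reads, and it held 98.9% of the 14802 star reads of the family. Put as a ratio, there were 23.4 mature reads for each star read of the variant and 9040 for the abundant sequence. For the 234 precursors in which both arms together reached 1000 reads, the median star share was 0.188%. Of these, 182 had a lower star share than the variant, and 56 a lower one than the precursor on scaffold 251. Both counts include the 34 precursors that had 0 star reads. The seed-only entry (scaffold 27891, 2979 to 3037, minus strand) had 0 star reads beside its 21 mature reads, for which the exact binomial interval of the star share reaches 16.11%, so its depth cannot place it.

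The miR-128 copies also differed in their star reads. The precursor on scaffold 12068 (219 to 274, plus strand) had 1447633 mature and 745 star reads, a star share of 0.05144% (exact binomial interval 0.0478% to 0.0553%). The precursor on scaffold 11793 (5383 to 5438, minus strand) had 1405781 mature and 367 star reads, a share of 0.0261% (interval 0.0235% to 0.0289%). The precursor on scaffold 845 (98828 to 98887, minus strand) had 1406829 mature and 2 star reads, a share of 0.000142% (interval 1.722e-05% to 0.000514%). The 3 intervals do not overlap, but they cover counting error only, and not the spread between eels or the placing of reads. The star arms of scaffolds 12068 and 11793 differed at 5 of 23 positions, namely C1U, A5G, G11A, U12C and G13A, counted from the 5′ end of the star. Because mature reads were listed at each copy, the star share of a copy is set against mature reads that the copies share. The star count itself therefore compares the copies more directly, and it was highest on scaffold 12068 and lowest on scaffold 845.

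The listed mature counts of the miR-128 copies were not quite equal, although their mature sequence is. The lowest count was 41852 reads or 2.89% below the highest. No loop read was listed at any of the 7 members, and a count of 0 allows up to 3 reads. For the precursors of miR-128-3p that is at most 0.000213% of their total.

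Predicted folding showed how the arms of the members pair. The minimum free energy, in kcal/mol at 37 °C, is more negative for a more stable fold. It was -30.6 for miR-101a on scaffold 251, -26.3 on scaffold 423 and -27.5 on scaffold 96. The miR-128 precursors had -26.9 on scaffold 12068, -29.2 on scaffold 11793 and -25.6 on scaffold 845. The seed-only entry had -24.7. Per base, 9.51% of the list's precursors were more stable than scaffold 251 and 41.6% more stable than the seed-only entry, with the other members between these.

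The arms of miR-101a matched each other almost without a gap. On scaffold 251 all 20 mature bases paired with the star arm, against 19 on scaffolds 423 and 96, and between 14 and 16 of 21 in the miR-128 precursors. The A7C difference of scaffold 423 lay opposite base 14 of the mature sequence, a U, and that pair was lost in its predicted fold. The G10A difference of the variant was met on the other arm by C11U, counted from the 5′ end of the star, so that a G-C pair on scaffold 251 was an A-U pair on scaffold 96. The variant's star also carried A12G, G15A, U17C and A19G relative to scaffold 251. Of these, A12G replaced an A-U pair by a G-U pair and G15A a G-U pair by an A-U pair. With U17C the pair with base 4 of the mature sequence was lost. At A19G the star base was unpaired on scaffold 251 and paired with base 3 of the mature sequence on scaffold 96. These are predicted folds of the listed precursor without its flanks.

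**Figure D2:**
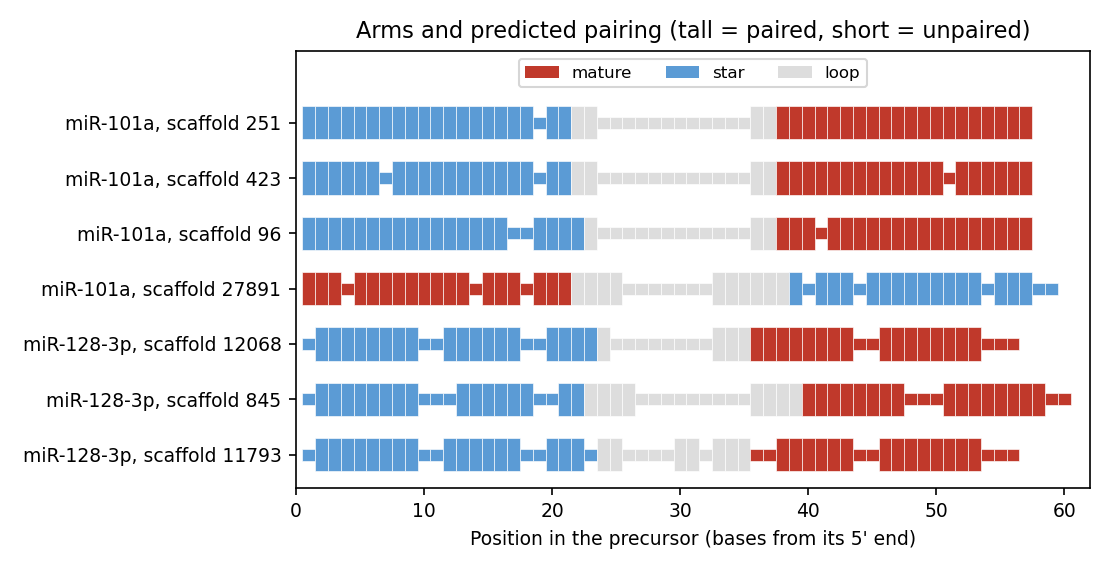
Arms of the 7 precursors along their length in bases from the 5′ end, with the mature arm red, the star arm blue and the loop grey; tall blocks are bases paired in the predicted fold and short blocks unpaired ones. The 3 abundant miR-101a hairpins are paired up to both outer ends, whereas the miR-128 hairpins have unpaired bases at both outer ends and a gap inside the mature arm.

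The whole miR-101a and miR-128 hairpins, with the mature arm in capitals, show these ends.
miR-101a precursor, scaffold 251: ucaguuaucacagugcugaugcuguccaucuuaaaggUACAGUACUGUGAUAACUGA
miR-101a precursor, scaffold 96: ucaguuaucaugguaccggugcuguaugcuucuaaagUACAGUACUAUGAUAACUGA
miR-128 precursor, scaffold 12068: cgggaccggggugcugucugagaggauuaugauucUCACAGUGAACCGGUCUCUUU

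Despite similar reads, the families differed widely in the miRDeep2 score, the log-odds score by which the program ranks hairpins. The miR-128 precursors scored 738422.4, 717240.8 and 716892.7, which is 0.51 per read in each. The miR-101a precursors scored 3.9, 3.8 and 3.7 in the same order of scaffolds 251, 423 and 96, and the seed-only entry 3.2 from 21 reads. A hairpin with 1510497 reads and one with 21 reads thus differed by less than 1 score unit, and 0 of 4 miR-101 entries reached a score of 10 while 3 of 3 miR-128 entries did. Of the 86 precursors with at least 100000 mature reads in the list, 19 scored under 10, and 3 of these were miR-101a.

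**Figure D3:**
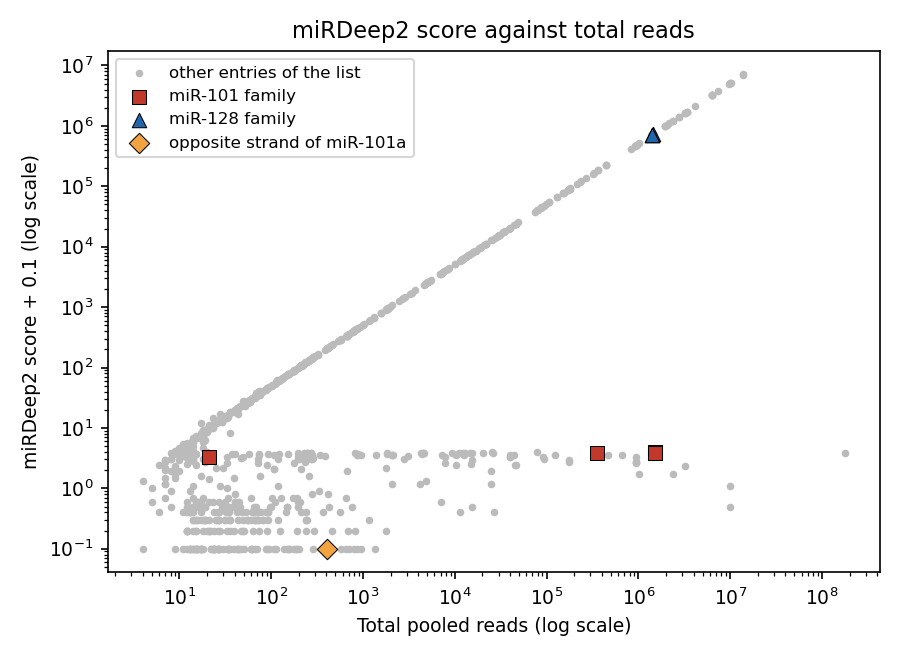
miRDeep2 score plus 0.1 against total pooled reads of all 820 precursors, both on log axes; red squares are the miR-101 family, blue triangles miR-128, the orange diamond the prediction opposite miR-101a and grey points the rest. The miR-128 points lie on the rising line of about 0.51 score units per read, whereas the 4 miR-101 points lie between 3.2 and 3.9 at any read count.

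Star reads were listed for the 3 abundant miR-101a precursors and all 3 miR-128 precursors, and the seed-only entry had 0. In the list, all 34 precursors with at least 1000 reads and 0 star reads scored under 10. A further 38 precursors with at least 1000 reads also scored under 10 although they had star reads, the 3 abundant miR-101a precursors among them, and 162 with star reads scored at least 10, all 3 miR-128 precursors among these.

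The open ends of the 3 abundant miR-101a hairpins differed from those of the miR-128 hairpins. Drosha and Dicer typically leave the 3′ end of each strand protruding by a short overhang. Overhangs are given here as the 3′ bases beyond the outermost pair minus the 5′ bases beyond it. At the loop end, only a pair between the mature and the star arm was taken, so arm bases paired with the loop counted as beyond it. At the open end, where the precursor starts and stops, the predicted overhang was 0 bases in all 3 abundant miR-101a precursors, 2 bases in the miR-128 precursors of scaffolds 12068 and 11793, and 1 base in that of scaffold 845. At the loop end it was 0, 0 and 1 for miR-101a on scaffolds 251, 423 and 96. For miR-128 it was 2, 4 and 0 on scaffolds 12068, 11793 and 845. The value on scaffold 845 rests on 2 star reads. On scaffold 11793, star bases beyond the counted pair were paired with the loop. The seed-only entry, with a score of 3.2, was listed with an overhang of 2 bases at both ends. Its star rests on 0 reads, so these ends were not observed and are not compared with those of the other members. The mature miR-101a sequence was also short, with 20 bases, a length found for 47 of 676 distinct mature sequences (6.95%), whereas 22 bases were listed for 47.3%. The 3 abundant miR-101a precursors stop at the last base of the listed mature sequence. Their open-end overhang therefore depends on where that listed sequence ends, and a longer end was not tested.

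Across the list, low-scoring precursors with star reads more often had such ends, as a description of precursors that include copies of each other. An open end is called blunt here if its overhang, 3′ minus 5′ bases, was 0. Among those with at least 1000 reads, it was blunt in 16 of 38 that scored under 10 (42.1%) and in 14 of 162 that scored at least 10 (8.64%). An overhang outside 1 to 3 bases at the open end, the loop end or both was found in 32 of 38 (84.2%) and in 32 of 162 (19.8%). All 3 abundant miR-101a precursors had such an end. So did the miR-128 precursors of scaffolds 845 and 11793, at the loop end, and these scored high. The star of scaffold 845 rests on 2 reads. Having 1 star read was enough to enter these counts, so some of the ends rest on very few reads. The overhang measure was chosen after the values had been seen, and its part in the score was not tested.

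**Figure D4:**
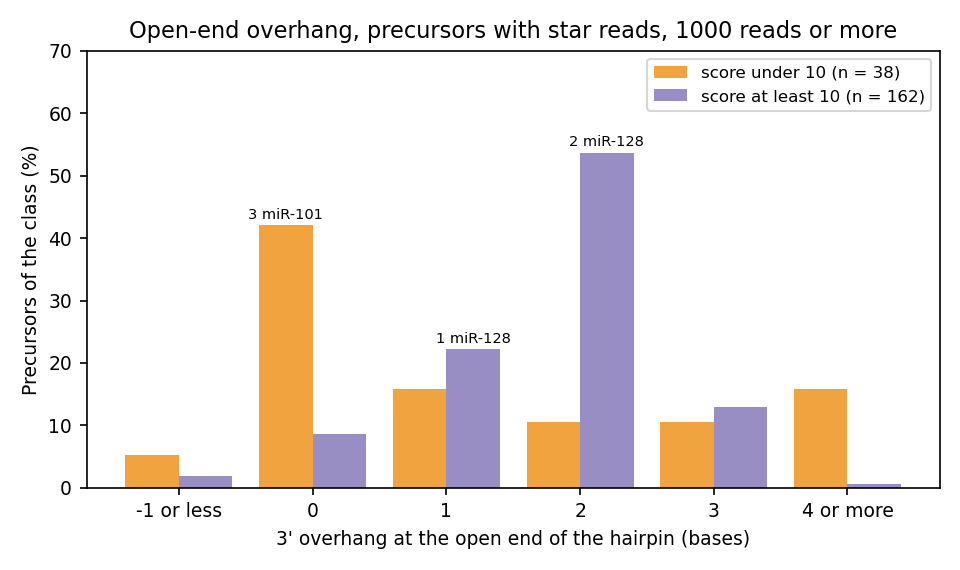
Percent of precursors by the predicted 3′ overhang at the open end, in bases, among those with star reads and at least 1000 reads; orange bars are the 38 scoring under 10 and purple bars the 162 scoring at least 10, and the text over a bar counts members. The 3 miR-101a precursors are among the 42.1% with an overhang of 0, and 2 of 3 miR-128 precursors among the 53.7% with an overhang of 2.

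Of the 7 members, 1 had a prediction on the opposite strand. On scaffold 423 an entry without a zebrafish example covered the same bases as the miR-101a precursor (63850 to 63906) on the plus strand, so its precursor was the exact reverse complement. Its mature sequence, the exact reverse complement of the miR-101a star of that scaffold, was the following.
Opposite strand, scaffold 423: caucagcacugugagaacuga

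It had 406 mature and 3 star reads and a score of 0. The reads on the opposite strand were 0.0271% of the 1510478 reads of the miR-101a precursor. The 406 mature reads of the opposite strand were 5.49 times the 74 star reads from the strand of miR-101a itself. The sequence is not the reverse complement of the star on scaffold 251, from which it differs through A7C, and no opposite-strand entry was listed there. It differed from the miR-101a mature sequence at 4 of 20 bases when both were aligned at their 3′ ends. It shared a run of 10 bases with the start of miR-146b, and whether reads of other miRNAs were placed there was not tested. The list held 26 pairs of predictions that overlap on opposite strands, 2 of them with the same start and end. In these pairs the weaker strand had between 0.00446% and 100% of the reads of the stronger, with a median of 9.7%, and 2 of the 26 had a lower percentage than the miR-101a pair.

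The abundant miR-101a sequence contains a run that reads the same as its own reverse complement, acaguacugu, of 10 bases, which includes the seed. Such a run of at least 10 bases was found in 9 of 676 distinct mature sequences (1.33%), of which miR-101a and miR-130b were named. In the G10A variant the longest such run was 6 bases. This property was looked for after the sequences had been seen.

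Families with near or shifted seeds were set beside the members. miR-144, whose seed resembles that of miR-101, had 0 entries of its name, which does not show that it is absent from the livers. miR-27d shares a run of 8 bases with miR-128-3p, shifted by a base so that its seed is another: its most abundant sequence was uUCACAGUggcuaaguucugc. It had 4 distinct sequences with 121394 mature reads in all, against 1447633 for miR-128-3p. Its leading precursor (scaffold 360521, 34 to 96, minus strand) had 80092 mature and 324 star reads, a star share of 0.4029% (exact binomial interval 0.360% to 0.449%), above those of the miR-128 precursors. The bases of the miR-128 seed occurred away from positions 2 to 8 in 5 further sequences, named miR-27d or miR-20b-5p. Those of the miR-101 seed did so in 1 unmatched sequence with 197 reads.

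The members lay alone on their scaffolds. Each of the 7 was on a scaffold of its own, and apart from the opposite-strand entry 0 other entries of the list lay on those 7 scaffolds. Within these scaffolds neither family had a listed neighbour that could form a cluster with it. Whether a neighbour lies beyond a scaffold end cannot be told from the list. The miR-128 precursor on scaffold 12068, for example, starts at base 219. No annotation of this assembly was used, so the genes around the members are not stated.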

How the data were processed

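Small RNA libraries were made from 12 eel livers. The tool bcl2fastq 2.17.1.14 is listed in the submitters' processing notes. Per the file headers, the authors deposited the miRDeep2 predictions, 820 precursors in 1 list, with read counts of the mature, star and loop parts and their total, as whole numbers without normalization, and the miRDeep2 score. No column names a sample; counts were taken as pooled, and depth per library is unknown. The sources used here do not state the miRDeep2 version, aligner, mismatches, trimming or the libraries included. Coordinates refer to the numbered scaffolds of the shotgun assembly in the list, whose build name is not given there; 1 was added to each start.

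Members were found by the listed example name. They, the comparison families and the measures were chosen with earlier results of these data known. All members are named. Identical mature sequences were counted once, at their highest count, for shares. Intervals are Clopper-Pearson 95% intervals. Precursors were folded with RNAfold 2.7.2 (ViennaRNA, 37 °C). An overhang is the number of 3′ bases beyond the outermost pair of that end, minus the number of 5′ bases beyond it. At the loop end that pair is the mature-to-star pair nearest the loop, and pairs with loop bases are ignored. The overhang code was tested on made-up hairpins with perfect stems, but not on unpaired 5′ ends or on overhangs at the loop end. Sequences were aligned globally with Biopython 1.88 (match 1, mismatch -1, gap -2). Python 3.11.15, numpy 2.4.6, scipy 1.17.1 and matplotlib 3.10.9 were used. The comparison of the sites planned as 6 against 6 livers needs counts per eel and was not made. Alternatives were score minimums, star support, ways to count copies, and settings of the overhang.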

Additional observations from a re-analysis of the deposited data

How the results depend on the processing

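How copies and scores were treated decided the family values. Of the 4 miR-101 entries, 0 were left at a score of at least 4 and 0 at a score of at least 10. The miR-101 share of mature reads, 0.6795%, became 0.866% when copies were added up, 0.6177% when each seed gave 1 sequence, 0.6811% by total reads and 0% at a score of at least 10. The miR-128 share, 0.5311%, became 1.097%, 0.592%, 0.5284% and 1.564% in the same order. The order of the families was thus reversed when copies were added up, since the miR-128 sequence then counts at 3 entries, and with the score minimum of 10, since no miR-101 entry reaches it. The rise of miR-128 to 1.564% at that minimum came from a smaller pool and not from more miR-128 reads. The leading miR-122 entry, with a score of 3.7 and 176573973 mature reads, then drops out of the pool. The star share moved from 0.006157% to 0.4382% for miR-101 and from 0.05144% to 0.02614% for miR-128 with reads summed over the entries of the family. That sum counts the mature reads shared by copies again at each copy. With each mature sequence counted once and star reads added up, the star share was 0.7928% for miR-101 and 0.07689% for miR-128. The direction of the change for miR-128 thus depended on how its copies were counted. The number of separate loci could not change with overlap on either strand, since each member lay on a scaffold of its own. The overhang settings were added after seeing the data. Precursors with an end outside the range went from 84.2% to 23.7% (score under 10) and from 19.8% to 4.94% (score at least 10) with a range of 0 to 4 bases, and to 63.2% and 11.1% for the open end only. With at least 100 reads they were 83.3% and 20.5%. No paired analysis was possible because the list has no column for any eel. Depth limits the seed-only entry, with 21 reads, and the 2 star reads of scaffold 845.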
